A study of Homo sapiens with 30 samples.

Results

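The genes described are 43 members of the amino acid branch of the stress response driven by the transcription factor ATF4. They were taken by symbol from a list of names, with no threshold on their values. The list was drawn up with earlier results of these data known, so counts of members beside all genes are descriptive. Each of the 43 was found once among the 60554 genes of the count files. They comprise 14 stress factors, 10 enzymes of amino acid and folate metabolism, 6 amino acid transporters, and 13 genes of tRNA charging, of which 12 are cytosolic aminoacyl-tRNA synthetases and the last is XPOT, the exportin that carries tRNA out of the nucleus. RNA was sequenced from T47D, a breast cancer cell line that carries the progesterone receptor, at passages 18 to 20. The 12 libraries formed 6 groups of 2. Cells given a control siRNA (siControl) or an siRNA against CEBPA (siCEBPA) were either untreated or treated with progestin, and all 8 of these libraries had a short arrest of 4 hours in charcoal-treated serum before hormone. The progestin libraries are titled Progesterone, and the hormone named in the protocol is R5020 at 10 nM. In the siRNA libraries the titles give T0 for every untreated and T360 for every treated one, with no unit, so hormone and time cannot be told apart there. A further 4 libraries, untreated or progestin-treated, were titled ICRF with no siRNA, arrest or time label. The labels do not say what ICRF is, and the series text speaks of the effect of inhibiting the DNA topoisomerase Topo2a. None of the 12 libraries was free of both siRNA and ICRF, so a difference between ICRF and siControl libraries cannot be told apart from the other differences between those sets of libraries.

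When an amino acid runs short, uncharged tRNA activates the kinase GCN2, which phosphorylates the initiation factor eIF2. Most translation then falls while the ATF4 messenger is translated more. ATF4 pairs with C/EBP proteins, the family to which the siRNA target CEBPA belongs, and binds composite C/EBP-ATF elements (CARE) in genes that make, import and charge amino acids. Because the protein is controlled mainly by translation, ATF4 RNA is not a measure of ATF4 protein, and no protein was measured here.

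Library totals ran from 57364785 to 148624099 counted read pairs, and the deepest library was siControl untreated replicate 2. In the siRNA libraries the next total was 70704799. Levels are given in CPM, a count scaled to its library's total times a TMM scaling factor of 0.905 to 1.10. CEBPA checked the siRNA labels. It stood at 47.7 and 54.4 CPM in siControl untreated cells and at 10.7 and 12.1 CPM in siCEBPA untreated cells. With progestin it stood at 207 and 204 CPM in siControl and at 57.5 and 62.2 CPM in siCEBPA, so that progestin-treated siCEBPA cells held more CEBPA RNA than untreated siControl cells. All 9 luminal epithelial markers examined, among them KRT8, ESR1 and PGR, were at 1 CPM or more in every library. Endothelial markers summed to at most 0.767 CPM and blood markers to at most 0.175 CPM. Of 5 fibroblast markers 1 reached 1 CPM, and the 5 summed to 26.0 to 69.8 CPM across libraries. The labels do not say whether the replicates were separate cultures, so each p below measures the spread between these libraries. With 2 libraries per group, the spread of a gene was estimated in part from all genes tested, so very small p do not rest on that gene's libraries alone. In such bulk samples, fewer cells of a kind and less RNA per cell cannot be told apart.

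The 43 genes spanned a wide range of abundance. Per kilobase of exon, SLC7A5 led in untreated siControl cells with 290 CPM per kb. It encodes the light chain of the leucine transporter LAT1. The glycyl-tRNA synthetase GARS1 followed with 166.0, then ATF4 with 152, XPOT with 132 and EPRS1, which charges both glutamate and proline tRNAs, with 128 CPM per kb. At the other end were TRIB1 with 3.60, CTH with 1.10, CBS with 0.468 and TRIB2 with 0.0218 CPM per kb. TRIB2, a pseudokinase that directs C/EBP-alpha to degradation, did not exceed 0.173 CPM in any library and had no counts in the siCEBPA untreated libraries. It did not pass the filter on low counts in the siRNA libraries, so 42 of the 43 genes were tested there and all 43 in the fits that held ICRF libraries. Together the 43 genes took 1.11% and 1.18% of all counts in untreated siControl cells and 0.632% and 0.652% in progestin-treated siCEBPA cells, with the other 8 libraries between.

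The summed level of each class gives the outline. The synthetases and XPOT summed to 5502 and 5789 CPM in untreated siControl cells and to 4708 and 4671 CPM with progestin. The same class summed to 3597 and 3737 CPM in untreated and to 3296 and 3285 CPM in treated siCEBPA cells, below all siControl libraries. With ICRF the order of untreated and treated was the other way round, at 3918 and 3875 CPM untreated and 4389 and 4384 CPM with progestin. The enzymes had the same order of groups within each set of libraries. In the stress factors the sum hid opposite movements, since DDIT4 and NUPR1 rose and most others fell with progestin in siControl cells.

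**Figure D1:**
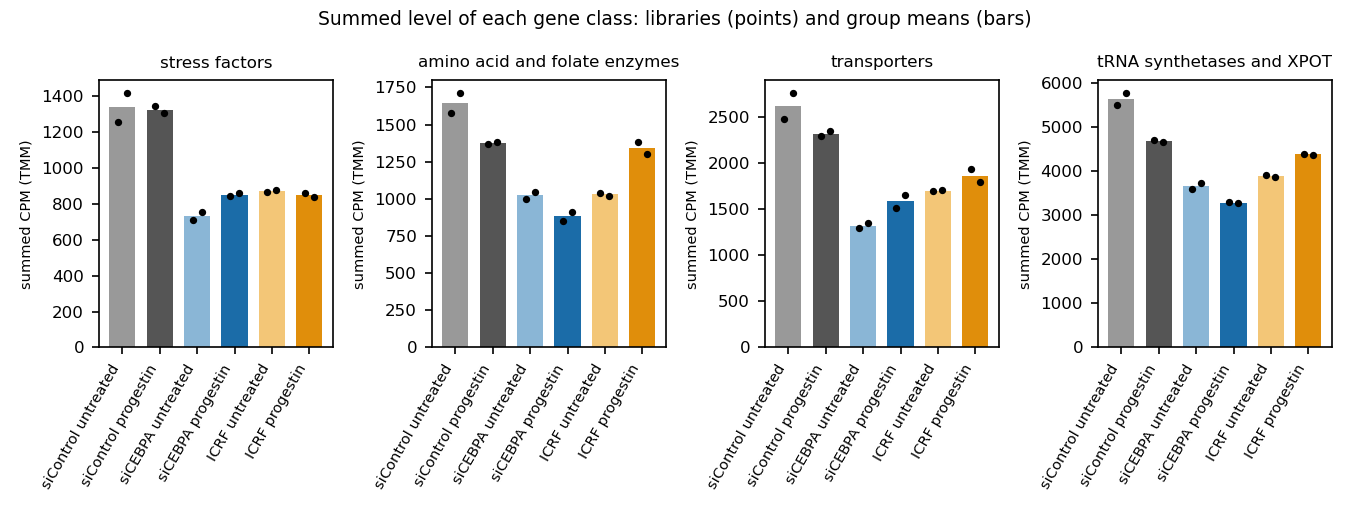
Summed CPM (y axis, TMM scaling) of the 14 stress factors, 10 enzymes, 6 transporters and 13 tRNA charging genes in each of the 6 groups (x axis). Points are libraries and bars are group means. Both siCEBPA groups lie below both siControl groups in all 4 panels, and only the ICRF groups show a higher enzyme sum with progestin, at 1385 and 1305 CPM against 1041 and 1019 CPM untreated.

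Promoter sequence was available in RefSeq (GRCh38.p14) for 34 of the 43 genes, as 300 bases per transcript start, 250 before and 50 after it. The core letters of the CARE, TGATGNAA on either strand, occurred in 13 of these 34 genes (38.2%) and in 1217 of all 27305 genes with such windows (4.46%). They were found in 7 of 11 synthetase or XPOT genes (AARS1, CARS1, GARS1, IARS1, MARS1, NARS1 and TARS1), in 3 of 5 transporters (SLC1A5, SLC3A2 and SLC7A1), in 2 of 12 stress factors (ATF3 and CHAC1) and in 1 of 6 enzymes (ASNS). Among the 11 other cytosolic synthetase and scaffold genes, 9 had a window and 0 held the letters, and among mitochondrial synthetases 1 of 14 did (YARS2). A C/EBP site alone, TTGCNNAA on either strand, occurred in 6 of the 34 genes (17.6%) against 12.7% of all genes. The letters TGACGTCA, a cyclic AMP response element, occurred in 1 (PPP1R15A) against 2.25% of all genes. TTGCATCA, the reverse complement of TGATGCAA, was the form in 6 of the 13, and these letters do not themselves match TTGCNNAA. A match describes letters in a window and is not evidence of a bound site. Because the members were listed as genes of the ATF4 response, their higher share of CARE letters is not an independent result. The stretches below are shown because they carry these letters in members from each class, with the match in capitals, 5′ to 3′ on the strand of the gene.
ASNS, chr7:97872443-97872502, minus strand: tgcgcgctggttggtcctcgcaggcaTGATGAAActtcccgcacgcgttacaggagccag
CHAC1, chr15:40953236-40953295, plus strand: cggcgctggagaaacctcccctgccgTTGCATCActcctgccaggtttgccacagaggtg
AARS1, chr16:70289660-70289719, minus strand: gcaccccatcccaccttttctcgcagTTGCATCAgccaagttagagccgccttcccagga
GARS1, chr7:30594818-30594877, plus strand: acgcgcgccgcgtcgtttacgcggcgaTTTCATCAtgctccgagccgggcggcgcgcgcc
IARS1, chr9:92293698-92293757, minus strand: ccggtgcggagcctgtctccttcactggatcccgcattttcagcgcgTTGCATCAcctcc
MARS1, chr12:57488053-57488082, plus strand: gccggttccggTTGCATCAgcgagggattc
TARS1, chr5:33440956-33440985, plus strand: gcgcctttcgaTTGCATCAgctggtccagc
SLC7A1, chr13:29595663-29595692, minus strand: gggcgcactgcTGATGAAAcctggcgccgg
The distance from the transcript start to the first letter of the match was 68 bases before it in ASNS, 209 in CHAC1, 187 in AARS1, 33 in GARS1 and 13 in IARS1. The match lay across or just after the start in MARS1, TARS1 and SLC7A1. For the CEBPA siRNA in untreated cells, where 24.0% of all genes were called lower, 13 of 13 with the letters were lower and their median log2 change was -0.52, while 18 of 20 without them were lower with a median of -0.67. For progestin with ICRF, where 31.3% of all genes were higher, 8 of 13 with the letters were higher with a median of 0.26, against 10 of 21 without them and a median of 0.16. The progestin response differed between siCEBPA and siControl cells, on the higher side, in 6 of 13 with the letters and in 4 of 20 without them, where 4.19% of all genes did. No test was made between genes with and without the letters.

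The first comparison asked how the genes differed when CEBPA was targeted in cells without hormone. Of the 42 genes tested, 39 were lower with the CEBPA siRNA, 0 were higher and 3 did not pass an adjusted p of 0.05 (edgeR's quasi-likelihood test, Benjamini-Hochberg over 18351 genes). At an unadjusted p under 0.05 the count on the higher side was 0 too, and it was 0 by DESeq2. Across all genes tested, 24.0% were called lower and 22.6% higher. The members' median log2 change was -0.65, against 0.01 over all genes. The decline ran through every class, with 12 of 13 stress factors, 9 of 10 enzymes, 6 of 6 transporters and 12 of 13 tRNA charging genes lower. The 3 that did not pass were PPP1R15A, the eIF2 phosphatase subunit that ends the response (0.01), LARS1, the leucyl-tRNA synthetase (0.01), and CTH, which makes cysteine from cystathionine (-0.28).

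ATF4 itself fell with the CEBPA siRNA. It measured 359 and 404 CPM in untreated siControl libraries and 217 and 225 CPM in untreated siCEBPA libraries. The groups did not overlap, as in 40 of the 42 members and 72.9% of all genes tested, and the log2 change was -0.78 ± 0.05 (SE, n = 2 per group) with an adjusted p of 5.84e-09 by edgeR's test. DDIT3, which encodes the C/EBP-family partner CHOP, went from 53.5 and 57.5 to 33.9 and 32.6 CPM, a log2 change of -0.73 ± 0.07. It overlaps MARS1 on the opposite strand, and the counts were made by strand.

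Among the stress factors the gene with the largest fall was CHAC1, an enzyme that degrades glutathione. It measured 20.2 and 24.0 CPM in siControl and 3.67 and 3.77 CPM in siCEBPA, a log2 change of -2.57 ± 0.10 with an adjusted p of 4.37e-11 by edgeR's test. GDF15, a secreted cytokine of the stress response, went from 50.5 and 59.5 to 11.6 and 12.2 CPM (-2.20 ± 0.15). DDIT4, an inhibitor of the growth kinase complex mTORC1, went from 37.9 and 42.8 to 14.7 and 14.7 CPM (-1.45 ± 0.06). In all of them every siCEBPA library lay below every siControl library. NUPR1, a small stress-induced chromatin protein, changed by -1.05, SESN2, a sestrin that senses leucine, by -0.91, ULBP1, a ligand of the killer cell receptor NKG2D, by -0.70, and the pseudokinases TRIB3 and TRIB1 by -0.67 and -0.36. ATF5, a relative of ATF4, changed by -0.42 and ATF3, a stress-induced relative, by -0.27. The ATF3 call was lost without siCEBPA untreated replicate 2 (-0.24, adjusted p = 0.0664) and without scaling factors (-0.17, adjusted p = 0.0864).

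The enzymes fell by similar amounts along the whole serine and folate route. SHMT2, the mitochondrial enzyme that splits serine into glycine and a folate-bound carbon, measured 478 and 525 CPM in siControl and 275 and 286 CPM in siCEBPA, a log2 change of -0.83 ± 0.05. PSAT1, the aminotransferase of serine synthesis, went from 119 and 124 to 71.3 and 72.1 CPM (-0.75 ± 0.04), and MTHFD2, which oxidises mitochondrial folate, from 295 and 309 to 214 and 214 CPM (-0.49 ± 0.04). None of these groups overlapped. The other serine enzymes PHGDH and PSPH changed by -0.60 and -0.65, the folate enzyme ALDH1L2 by -0.71, the proline enzyme PYCR1 by -0.46 and asparagine synthetase ASNS by -0.96. CBS, which opens the route from homocysteine to cysteine, changed by -0.58 at levels of 1.70 to 3.50 CPM. That call was lost without siControl untreated replicate 2 (-0.41, adjusted p = 0.176) or without siCEBPA untreated replicate 1 (-0.31, adjusted p = 0.242).

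In the transporters both chains of LAT1 fell most. The heavy chain SLC3A2 measured 458 and 515 CPM in siControl and 223 and 229 CPM in siCEBPA, a log2 change of -1.10 ± 0.06. The light chain SLC7A5 went from 1288 and 1466 to 496 and 534 CPM (-1.41 ± 0.08). SLC7A1, which imports arginine and lysine, went from 150.2 and 166 to 98.6 and 108 CPM (-0.60 ± 0.05). The groups were apart in each. The cystine importer SLC7A11, the neutral amino acid transporter SLC38A2 and the glutamine transporter SLC1A5 changed by -0.42, -0.37 and -0.25.

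Of the tRNA charging genes, GARS1 fell most, from 668 and 711 to 272 and 285 CPM, a log2 change of -1.30 ± 0.04 with an adjusted p of 6.62e-12 by edgeR's test. The tryptophanyl-tRNA synthetase WARS1 went from 283 and 318 to 132 and 141 CPM (-1.12 ± 0.05), and the threonyl-tRNA synthetase TARS1 from 218 and 226 to 117 and 121 CPM (-0.88 ± 0.04). Every siCEBPA library was below every siControl library in each. The others that were called lower ranged from -0.78 for YARS1 to -0.33 for NARS1, with XPOT at -0.66, and LARS1 was not called (0.01). Without scaling factors the share of calls that were higher over all genes moved from 48.5% to 65.3% and the median of all genes from 0.01 to 0.10. The members' median was then -0.56, and LARS1 became a call on the higher side (0.11, adjusted p = 0.0369).

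**Figure D2:**
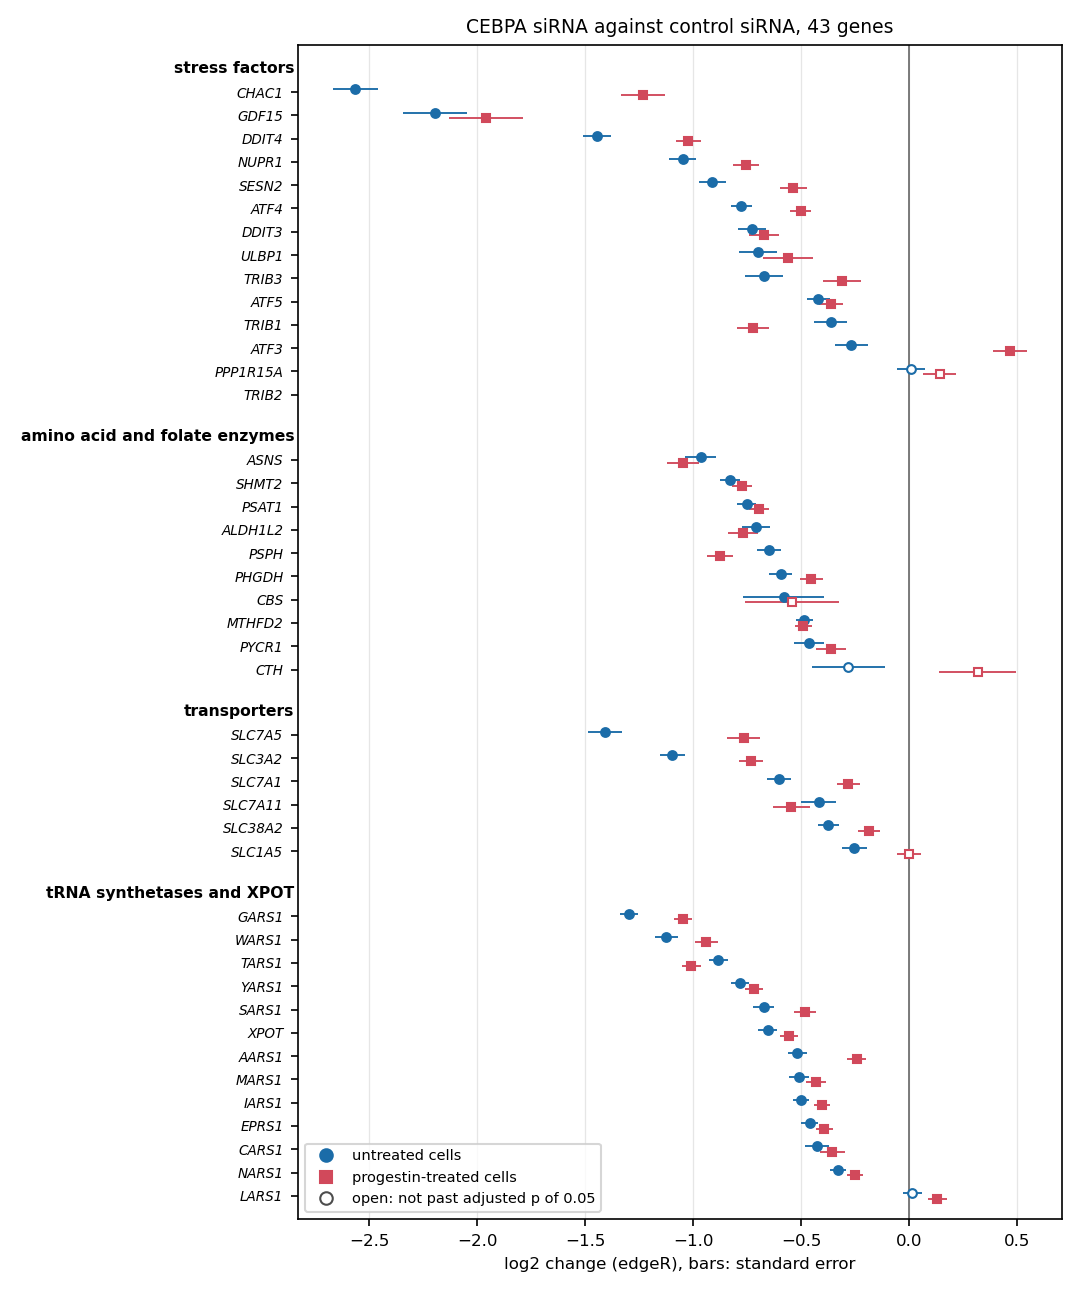
Log2 change (x axis) for CEBPA siRNA against control siRNA in untreated cells (circles) and progestin-treated cells (squares), with standard errors, for 42 of the 43 genes by class (TRIB2 was not tested). Filled symbols passed an adjusted p of 0.05. Nearly all symbols lie left of 0, and CHAC1 moved from -2.57 without hormone to -1.23 with it.

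The same siRNA comparison in progestin-treated cells gave 36 genes lower, 2 higher and 4 not past the threshold. Over all genes 22.1% were called lower and 22.5% higher. The members' median was -0.54 against 0.02 for all genes. The classes gave 11 of 13 stress factors, 8 of 10 enzymes, 5 of 6 transporters and 12 of 13 tRNA charging genes lower. This comparison shares no library with the untreated one, and all 36 genes lower here were among the 39 lower there. That overlap was not counted over all genes.

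DDIT4 measured 128 and 133 CPM in treated siControl libraries and 61.2 and 66.0 CPM in treated siCEBPA libraries, a log2 change of -1.02 ± 0.06 (edgeR, adjusted p = 2.05e-09). CHAC1 went from 11.7 and 13.1 to 5.11 and 5.34 CPM (-1.23 ± 0.10), NUPR1 from 589 and 555 to 331 and 340 CPM (-0.76 ± 0.06) and ATF4 from 246 and 241 to 171 and 169 CPM (-0.50 ± 0.05). Groups did not overlap in any of the 4, nor in 72.3% of all genes tested. ATF3, lower without hormone, was higher here, at 25.0 and 21.5 CPM in siCEBPA against 16.3 and 17.7 CPM in siControl (0.47 ± 0.08).

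SHMT2 (-0.77), PSAT1 (-0.70) and PSPH (-0.88) led the enzymes by p. PSPH, the phosphatase of the last step of serine synthesis, fell from 37.5 and 35.4 to 19.1 and 20.2 CPM. Of the transporters, SLC3A2 changed by -0.73, SLC7A5 by -0.77 and SLC7A11 by -0.55, while SLC1A5 stood at 262 and 260.3 CPM against 247 and 270 CPM with overlapping groups (-0.00). GARS1 went from 560 and 551 to 266 and 265 CPM (-1.05 ± 0.04), TARS1 from 140.3 and 145 to 71.8 and 68.4 CPM (-1.01 ± 0.05), and YARS1, which charges tyrosine tRNA, from 206 and 207 to 123 and 126 CPM (-0.72 ± 0.04). In these 3 synthetases the libraries of the groups were clearly apart. LARS1 was higher at 0.13, with adjusted p of 0.0202, and lost that call without siControl progestin replicate 1 (0.11, adjusted p = 0.15), without siControl progestin replicate 2 (0.13, 0.0914) or without siCEBPA progestin replicate 1 (0.07, 0.245). TRIB3 was lower, a call lost when any one of the 4 progestin-treated siRNA libraries was left out (-0.35 to -0.27, adjusted p = 0.0693 to 0.143). SLC38A2 was lower too, and its call was lost without siControl progestin replicate 2 (-0.11, 0.146) or siCEBPA progestin replicate 2 (-0.14, 0.06). Without scaling factors, the share of calls on the higher side over all genes moved from 50.5% to 64.9%, the median of all genes from 0.02 to 0.11 and that of the members to -0.45.

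With progestin, most of the genes were lower in siControl cells and a few were higher. Hormone and the T0 and T360 labels changed together in the siRNA libraries. The untreated siControl libraries were the reference here and in the first siRNA comparison, so those results are not independent. Of 42 tested, 30 were lower, 5 were higher and 7 did not pass, where 29.3% of all genes were lower and 29.2% higher. The members' median log2 change was -0.35, against -0.03 over all genes. Lower were 8 of 13 stress factors, 7 of 10 enzymes, 4 of 6 transporters and 11 of 13 tRNA charging genes. The 5 that rose were DDIT4, TRIB1, NUPR1, SLC38A2 and WARS1. With upper quartile scaling the share of calls on the higher side over all genes moved from 49.97% to 38.3%, and without scaling factors to 33.9%. The median of all genes then stood at -0.15 and -0.19, and that of the members at -0.46 and -0.51.

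ATF4 fell from 359 and 404 CPM untreated to 246 and 241 CPM with progestin, without overlap, as in 79.3% of all genes tested (log2 change -0.66 ± 0.05, edgeR, adjusted p = 9.97e-09). DDIT3 fell from 53.5 and 57.5 to 44.8 and 41.4 CPM (-0.38 ± 0.07). ULBP1, the natural killer cell ligand, fell most of the 42, from 18.0 and 19.3 to 3.79 and 4.21 CPM (-2.24 ± 0.10). PPP1R15A fell from 24.1 and 24.7 to 9.69 and 10.3 CPM (-1.30 ± 0.07). It was thus lower with hormone and not called for the siRNA. GDF15 (-1.82), CHAC1 (-0.85), ATF3 (-0.45) and ATF5 (-0.44) also fell. Against these, DDIT4 rose from 37.9 and 42.8 to 128 and 133 CPM (1.68 ± 0.06, adjusted p = 7.84e-13), with TRIB1 at 0.47 and NUPR1 at 0.45. TRIB3 (-0.12) and SESN2 (-0.09) were not called, and their libraries overlapped.

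The serine route fell at all 3 of its enzymes. PSPH went from 63.3 and 66.7 to 37.5 and 35.4 CPM (-0.85 ± 0.06), PSAT1 from 119 and 124 to 76.9 and 78.6 CPM (-0.66 ± 0.04), and PHGDH, which diverts the glycolytic intermediate into serine, changed by -0.30. MTHFD2 went from 295 and 309 to 216 and 221 CPM (-0.48 ± 0.04). In all of these, each treated library was below each untreated one. ALDH1L2, CBS and ASNS fell by 0.73, 0.66 and 0.44 on the log2 scale. The CBS call was lost without siControl untreated replicate 2 (-0.48, adjusted p = 0.0913) or without siControl progestin replicate 2 (-0.51, adjusted p = 0.0919). SHMT2 (-0.09), PYCR1 (0.05) and CTH (-0.38) did not pass.

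SLC38A2 was the transporter that rose, from 234 and 223 to 304 and 337 CPM (0.48 ± 0.05), while SLC7A1 went from 150.2 and 166 to 113 and 114 CPM (-0.50 ± 0.05) and SLC7A11 from 36.8 and 38.9 to 22.5 and 25.2 CPM (-0.68 ± 0.08). No overlap was seen in the 3. SLC7A5 fell by 0.35 and SLC1A5 by 0.34, and SLC3A2 was not called at 0.06. AARS1, the alanyl-tRNA synthetase, fell most of the synthetases, from 491 and 530 to 307 and 315 CPM (-0.73 ± 0.04, adjusted p = 5.41e-10). TARS1 went from 218 and 226 to 140.3 and 145 CPM (-0.65 ± 0.04) and GARS1 from 668 and 711 to 560 and 551 CPM (-0.32 ± 0.04), again without overlap. NARS1, the asparaginyl-tRNA synthetase, was not called, at 283 and 286 CPM untreated and 292 and 281 CPM treated. WARS1 rose by 0.18, a call lost with upper quartile scaling (0.07, adjusted p = 0.284), without scaling factors (0.03, 0.687), without siControl untreated replicate 1 (0.10, 0.115) or without siControl progestin replicate 1 (0.16, 0.0697).

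**Figure D3:**
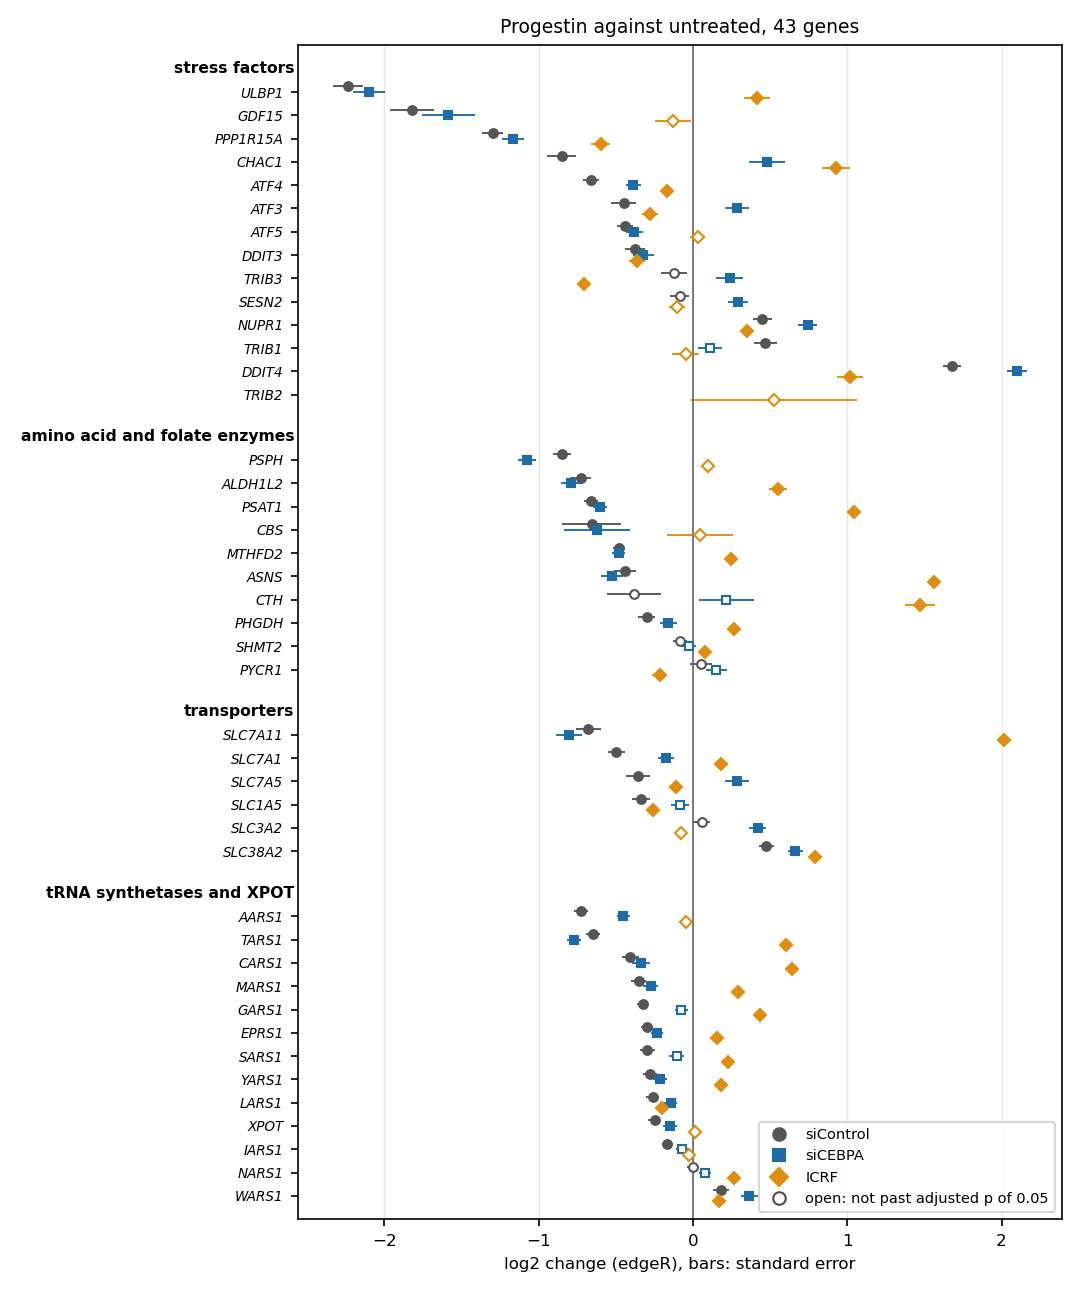
Log2 change (x axis) for progestin against untreated cells in siControl (circles), siCEBPA (squares) and ICRF (diamonds) libraries, with standard errors, by class. Filled symbols passed an adjusted p of 0.05, and TRIB2 was tested with ICRF only. In the siRNA libraries no enzyme has a filled symbol right of 0, while with ICRF SLC7A11, ASNS, CTH and PSAT1 lie between 1.04 and 2.02.

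In siCEBPA cells 23 genes were lower with progestin, 10 were higher and 9 did not pass the threshold. Over all genes 28.4% were lower and 29.9% higher. The members' median was -0.15 against -0.03 for all genes. This response shares no library with the one in siControl cells. All 23 genes lower here were among the 30 lower there. Of the 5 higher there, 4 were among the 10 higher here (DDIT4, NUPR1, SLC38A2 and WARS1). Neither overlap was counted over all genes. ATF3, CHAC1 and SLC7A5 fell in siControl cells and rose in siCEBPA cells. TRIB3, SESN2 and SLC3A2 rose here and were not called there. These rises depended on scaling for some: ATF3 (0.28) dropped to 0.15 with upper quartile scaling (adjusted p = 0.103), SLC7A5 (0.29) to 0.16 (0.145) and TRIB3 (0.24) to 0.11 (0.364). Without scaling factors SESN2 was not called either (0.12, 0.0994). NARS1, at 0.08 and not called, was then called lower (-0.09, 0.0489). TRIB3 also lost its call with the stricter filter and without each of 5 libraries, whose values ran from 0.17 to 0.28, SLC7A5 without siCEBPA untreated replicate 1 (0.25, 0.0988) and ATF3 without siCEBPA progestin replicate 1 (0.17, 0.103). With upper quartile scaling and without scaling factors the share of calls on the higher side over all genes moved from 51.3% to 36.9% and 33.3%, the median of all genes to -0.16 and -0.19, and the members' median to -0.28 and -0.32. The medians of the stress factors and of the transporters, 0.11 and 0.10, then fell below 0.

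ATF4 measured 217 and 225 CPM untreated and 171 and 169 CPM with progestin in siCEBPA cells (-0.39 ± 0.05, edgeR, adjusted p = 6.27e-06). DDIT3 fell by 0.32, from 33.9 and 32.6 to 28.0 and 25.5 CPM. DDIT4 rose from 14.7 and 14.7 to 61.2 and 66.0 CPM (2.10 ± 0.06), while ULBP1 went from 10.9 and 11.99 to 2.79 and 2.56 CPM (-2.10 ± 0.10) and PPP1R15A from 23.8 and 25.0 to 11.0 and 10.9 CPM (-1.17 ± 0.07). The groups were apart in each of these, as in 39 of the 42 members and 78.1% of all genes tested. The stress factors split evenly, 6 lower and 6 higher of 13, and the enzymes gave 7 lower and 0 higher of 10, also 0 higher at an unadjusted p under 0.05 by edgeR. PYCR1, at 0.15 with an adjusted p of 0.0829, was called higher by DESeq2 (0.17, adjusted p = 0.0295), with the replicate block (0.15, adjusted p = 0.00289) and under 5 other alternatives.

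Of the serine enzymes PSPH fell from 40.9 and 41.3 to 19.1 and 20.2 CPM (-1.07 ± 0.06) and PSAT1 from 71.3 and 72.1 to 46.7 and 48.2 CPM (-0.60 ± 0.05), with MTHFD2 at 214 and 214 against 153 and 155 CPM (-0.48 ± 0.04). SLC38A2 went from 175.0 and 175 to 286 and 271 CPM (0.66 ± 0.05), SLC3A2 from 223 and 229 to 288 and 320.4 CPM (0.42 ± 0.06) and SLC7A11 from 27.5 and 28.6 to 17.6 and 14.7 CPM (-0.81 ± 0.08). TARS1 fell from 117 and 121 to 71.8 and 68.4 CPM (-0.77 ± 0.04), AARS1 from 345 and 362 to 257 and 264 CPM (-0.45 ± 0.04), and WARS1 rose from 132 and 141 to 173 and 181 CPM (0.36 ± 0.05). Groups were apart in these genes too. Of the 13 tRNA charging genes 8 were lower, 1 was higher and 4 did not pass. Some smaller falls were not called when a single library was left out. Without siCEBPA untreated replicate 2 the calls of SLC7A1 (-0.10, adjusted p = 0.219), XPOT (-0.10, 0.126), PHGDH (-0.13, 0.122) and CBS (-0.28, 0.338) were lost. LARS1 (-0.12, 0.0698) and PHGDH (-0.16, 0.0619) lost theirs without siCEBPA untreated replicate 1. Without siCEBPA progestin replicate 1 PHGDH (-0.09, 0.213) was not called, nor without siCEBPA progestin replicate 2 were LARS1 (-0.09, 0.136) and CBS (-0.52, 0.107).

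The difference of the responses, siCEBPA minus siControl, was tested in the same fit. It was positive in 10 of 42 genes, negative in 0 and not past the threshold in 32, where 4.19% of all genes were higher and 3.06% lower. At an unadjusted p under 0.05 the counts were 17 positive and 2 negative, and DESeq2 called 13 positive and 0 negative. The members' median difference was 0.12 against 0.02 for all genes. The 10 were CHAC1 (1.33 ± 0.15), ATF3 (0.73 ± 0.11), SLC7A5 (0.64 ± 0.11), DDIT4 (0.42 ± 0.09), SESN2 (0.38 ± 0.09), SLC3A2 (0.36 ± 0.08), SLC7A1 (0.32 ± 0.08), ATF4 (0.28 ± 0.07), AARS1 (0.28 ± 0.06) and GARS1 (0.25 ± 0.06). None of the 10 enzymes was among them, and at an unadjusted p under 0.05 there were 1 positive and 1 negative. In CHAC1, which fell by 0.85 in siControl cells and rose by 0.48 in siCEBPA cells, the adjusted p of the difference was 4.47e-05 by edgeR's test.

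The count of these differences moved with single libraries. Without siControl progestin replicate 1 it was 2, and the other 8 genes then had differences of 0.25 to 0.63 with adjusted p of 0.0566 to 0.0954 by edgeR. The count was 5 without siControl untreated replicate 2, 5 without siControl progestin replicate 2 and 5 without siCEBPA untreated replicate 1. CHAC1 and ATF3 kept their calls under every alternative run, and each of the other 8 lost it under at least 1. ATF4 lost its call under 4 of them, for example without siControl untreated replicate 2 (0.19, adjusted p = 0.122). With the replicate number as a block the count was 14 higher and 1 lower. CEBPA's own response also differed, by 0.40.

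With ICRF many of the genes were higher in the progestin libraries. Of 43 tested, 23 were higher, 9 lower and 11 not past the threshold, where 31.3% of all genes were higher and 30.0% lower. The members' median was 0.17 against -0.01. Higher were 4 of 14 stress factors, 7 of 10 enzymes, 3 of 6 transporters and 9 of 13 tRNA charging genes. This response shares no library with the siRNA ones. Of the 30 genes that fell in siControl cells, 16 rose with ICRF, 7 fell and 7 were not called. The 4 of 5 genes that rose in both were DDIT4, NUPR1, SLC38A2 and WARS1. How often genes outside the members rose, fell or turned between these sets was not counted.

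SLC7A11 rose most, from 22.0 and 23.0 CPM untreated to 92.7 and 91.0 CPM with progestin (2.02 ± 0.05, edgeR, adjusted p = 3.69e-34). ASNS rose from 69.7 and 67.1 to 210.0 and 199 CPM (1.56 ± 0.04), CTH from 4.10 and 3.69 to 11.0 and 10.9 CPM (1.47 ± 0.09) and PSAT1 from 71.3 and 67.8 to 149 and 141 CPM (1.04 ± 0.04). Every treated library lay above every untreated one, and groups were apart, in either direction, in 36 of the 43 members and 78.7% of all genes tested. The other enzymes that rose were ALDH1L2 (0.55), PHGDH (0.27), MTHFD2 (0.25) and SHMT2 (0.08), while PYCR1 fell by 0.22, a call lost in one fit of all 12 libraries (-0.20, adjusted p = 0.0715). SHMT2 lost its call under 7 alternatives, among them without ICRF untreated replicate 1 (0.10, adjusted p = 0.0985), without ICRF untreated replicate 2 (0.06, 0.315) and without ICRF progestin replicate 1 (0.05, 0.218).

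The tRNA charging genes followed with smaller rises. CARS1, which charges cysteine tRNA, went from 66.7 and 69.4 to 107 and 107 CPM (0.64 ± 0.04), TARS1 from 158 and 155 to 239 and 240.4 CPM (0.60 ± 0.03) and GARS1 from 424 and 416 to 580 and 567 CPM (0.43 ± 0.03). The groups were apart in all 3. MARS1, NARS1, SARS1, YARS1, WARS1 and EPRS1 rose by 0.29 to 0.16, LARS1 fell by 0.20, and AARS1, IARS1 and XPOT were not called.

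Several regulators moved the other way. ATF4 measured 324 and 327 CPM untreated and 293 and 291 CPM with progestin, a fall of 0.17 ± 0.03, and DDIT3 went from 41.6 and 40.9 to 32.7 and 32.2 CPM (-0.36 ± 0.05). TRIB3, a pseudokinase induced by ATF4 that feeds back on the response, went from 108 and 109 to 70.4 and 63.8 CPM (-0.71 ± 0.04) and PPP1R15A from 34.4 and 36.6 to 25.2 and 22.2 CPM (-0.60 ± 0.06). In all 4 each treated library was lower. NUPR1 rose from 198 and 204 to 260.0 and 258 CPM (0.35 ± 0.03), DDIT4 by 1.02, CHAC1 by 0.93 and ULBP1 by 0.42. Of the transporters SLC38A2 rose from 239 and 234 to 412 and 415 CPM (0.79 ± 0.03), SLC1A5 went from 266 and 260.4 to 231 and 213 CPM (-0.26 ± 0.04), and SLC7A5 was lower by 0.11 with overlapping libraries. That SLC7A5 call was lost without ICRF untreated replicate 2 (-0.10, adjusted p = 0.0736) or without ICRF progestin replicate 2 (-0.02, 0.567). With upper quartile scaling the members' median was 0.10 against -0.08 for all genes, and the transporters' median went from 0.05 to -0.01.

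**Figure D4:**
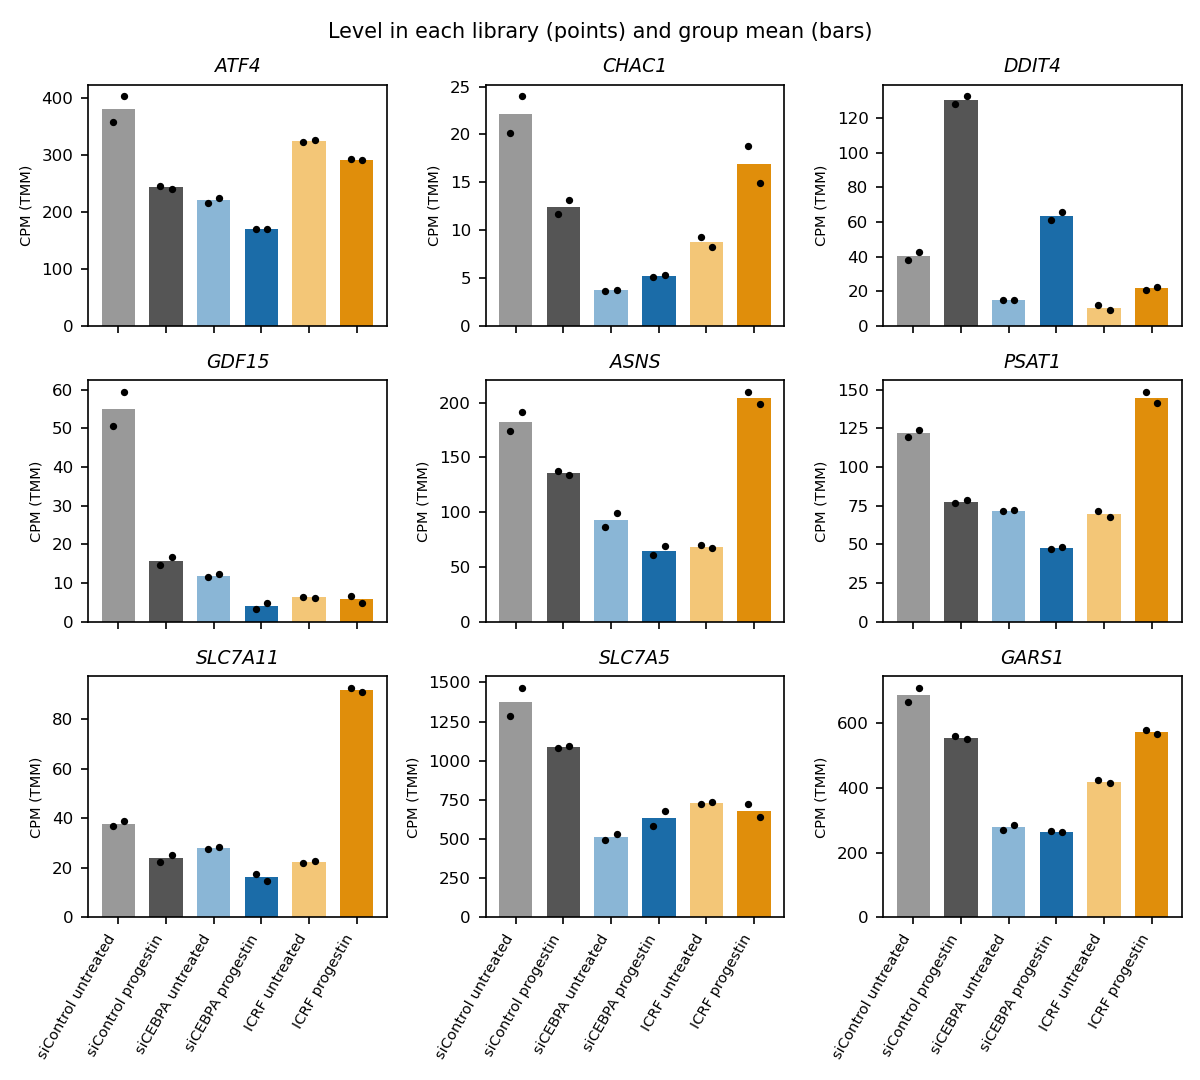
Level in CPM (y axes, TMM scaling) of 9 of the 43 genes in each library (points) with group means (bars) for the 6 groups (x axis). ATF4, GDF15, SLC7A5 and GARS1 are highest in untreated siControl cells, ASNS, PSAT1 and SLC7A11 are highest with ICRF and progestin, and DDIT4 is highest in siControl cells with progestin.

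The difference of the progestin responses, ICRF minus siControl, was fitted over all 12 libraries. It was positive in 29 genes, negative in 3 and not past the threshold in 11 of 43, where 24.9% of all genes were higher and 24.0% lower. The members' median difference was 0.47 against 0.02. By class, 9 of 10 enzymes, 11 of 13 tRNA charging genes, 3 of 6 transporters and 6 of 14 stress factors were positive. The 3 that were negative, DDIT4 (-0.65), TRIB3 (-0.58) and TRIB1 (-0.51), are stress factors. SLC7A11 (2.70 ± 0.10), ULBP1 (2.66 ± 0.13), ASNS (2.01 ± 0.10), CTH (1.85 ± 0.19), CHAC1 (1.78 ± 0.15), PSAT1 (1.71 ± 0.06) and GDF15 (1.69 ± 0.26) had the largest positive differences. ALDH1L2 (1.28), TARS1 (1.26), CARS1 (1.05), PSPH (0.95), GARS1 (0.76) and MTHFD2 (0.73) followed, and ATF4 was at 0.49. A positive difference need not be a rise with ICRF. GDF15, PSPH, CBS, ATF5, AARS1, IARS1 and XPOT fell in siControl cells and were not called for progestin with ICRF. GDF15 measured 6.41 and 6.13 CPM in untreated and 6.74 and 4.82 CPM in progestin-treated ICRF libraries. SHMT2, IARS1 and CBS had calls that were lost under 11, 7 and 8 alternatives. SHMT2 lost it when any one of 9 libraries was left out (0.10 to 0.18), IARS1 with any one of 7 (0.10 to 0.13) and CBS with any one of 6 (0.46 to 0.74), with siControl untreated replicate 2 and ICRF progestin replicate 1 among them in all 3 genes. The count of negative genes was 6 without siControl untreated replicate 2 and 5 without ICRF progestin replicate 1. Without scaling factors the share of calls on the higher side moved from 50.9% to 65.2%, the median of all genes to 0.17 and that of the members to 0.63.

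The untreated libraries of the sets were set side by side in the same fit. In untreated ICRF cells 35 genes were lower than in untreated siControl cells, 4 were higher and 4 were not called, where 32.3% of all genes were lower and 32.3% higher. The members' median was -0.67 against -0.00. GDF15 stood at 6.41 and 6.13 CPM with ICRF against 50.5 and 59.5 CPM in siControl (-3.13 ± 0.19) and DDIT4 at 11.8 and 9.30 against 37.9 and 42.8 CPM (-1.94 ± 0.09). Groups were apart in 41 of the 43 members and in 82.2% of all genes tested. ULBP1 (-1.28), NUPR1 (-1.05), ATF5 (-0.82) and ATF4 (-0.23) were lower too. In the enzymes SHMT2 (-0.96), PSAT1 (-0.81) and ALDH1L2 (-1.09) were lower, in the transporters SLC7A11 (-0.75), SLC7A1 (-0.60) and SLC3A2 (-0.50), and in the synthetases SARS1 (-0.94), GARS1 (-0.71) and IARS1 (-0.65). The 4 that were higher were ATF3 (0.92), PPP1R15A (0.54), CTH (0.58) and LARS1 (0.12). LARS1 lost its call without siControl untreated replicate 2 (0.09, adjusted p = 0.103) or without ICRF untreated replicate 1 (0.11, 0.0657). Some genes that rose with progestin and ICRF thus started from a lower level. ASNS in untreated ICRF cells was at 69.7 and 67.1 CPM, against 174 and 191 CPM in untreated siControl cells.

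Over the 6 groups, 24 of the 43 genes had their highest mean level in untreated siControl cells, 10 in ICRF cells with progestin, 6 in siControl cells with progestin and 3 in untreated ICRF cells. None had it in either siCEBPA group. Progestin-treated siCEBPA cells held the lowest mean in 19 genes and untreated siCEBPA cells in 9, with 6 in untreated ICRF, 5 in progestin-treated ICRF and 4 in progestin-treated siControl cells. No gene had its lowest mean in untreated siControl cells. The same untreated siControl libraries entered the siControl progestin response, the siRNA comparison in untreated cells and the comparison with untreated ICRF cells. They also entered both differences of progestin responses. A high or low level in them moves all of these results together, so their counts are not separate findings. These counts were made for the members only, so no share over all genes can be set beside them.

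The rest of the pathway was described with further lists of genes that are not members, beside the 24.0% of all genes called lower and 22.6% called higher with the CEBPA siRNA in untreated cells. Of 17 other ATF4 targets of the stress response, 16 were lower and 1 higher with the CEBPA siRNA in untreated cells, with a median of -0.81. EIF4EBP1, a repressor of translation initiation, changed by -1.16 and CLGN, a chaperone of the endoplasmic reticulum, by -1.93. Of 12 bZIP partners of ATF4, a list that holds CEBPA itself, 9 were lower and 0 higher, also 0 at an unadjusted p under 0.05 by edgeR, and CEBPB changed by -1.45. CEBPG and JDP2 stand both in this list and among the other ATF4 targets, so they count in each. Of 16 other enzymes of serine, folate and proline metabolism 12 were lower and 3 higher, with the glycine decarboxylase GLDC at -1.25. Of 12 other amino acid transporters 8 were lower and 2 higher, with SLC1A4, which carries alanine and serine, at -0.77. The 15 eIF2 kinases and regulators gave 6 lower and 2 higher, with a median of -0.09 that became 0.01 without scaling factors. In progestin-treated cells 14 of the 17 other ATF4 targets were lower, where 22.1% of all genes were. The progestin response in siControl cells, with TMM scaling, was mixed in these further lists, where 29.3% of all genes were lower and 29.2% higher. Of the 17 other ATF4 targets 8 were lower and 6 higher (median -0.13). The 16 other enzymes gave 5 lower and 8 higher (0.18) and the 12 other transporters 4 and 5 (-0.02). The 12 bZIP partners gave 2 lower and 8 higher (0.66) and the 15 eIF2 genes 5 and 8 (0.16).

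Synthetases outside the 12 had other values. Of 11 other cytosolic synthetase and scaffold genes, 4 were lower and 1 higher with the CEBPA siRNA in untreated cells (median -0.07), and of 17 mitochondrial synthetases 6 were lower and 3 higher (-0.05), against 24.0% lower and 22.6% higher over all genes. Without scaling factors these medians were 0.03 and 0.05. With progestin in siControl cells 7 of the other cytosolic genes were higher and 1 was lower (median 0.25). The scaffold AIMP2 was at 0.78 and the histidyl-tRNA synthetase HARS1 at 0.58. Of the 13 member genes 1 rose and 11 fell (-0.30), where 29.2% of all genes rose and 29.3% fell. Without scaling factors the other cytosolic genes gave 4 higher and 3 lower (0.09). With ICRF 7 of the 11 were lower and 1 higher (-0.19), the rise being RARS1, which charges arginine tRNA, at 0.42, and 9 of the 13 member genes were higher (0.18), where 30.0% of all genes were lower and 31.3% higher. Of 15 genes of tRNA export and maturation other than XPOT, 11 rose and 0 fell with progestin in siControl cells (edgeR, 0 lower at an unadjusted p under 0.05), and without scaling factors 7 rose and 4 fell. The difference between these lists was not tested.

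**Figure D5:**
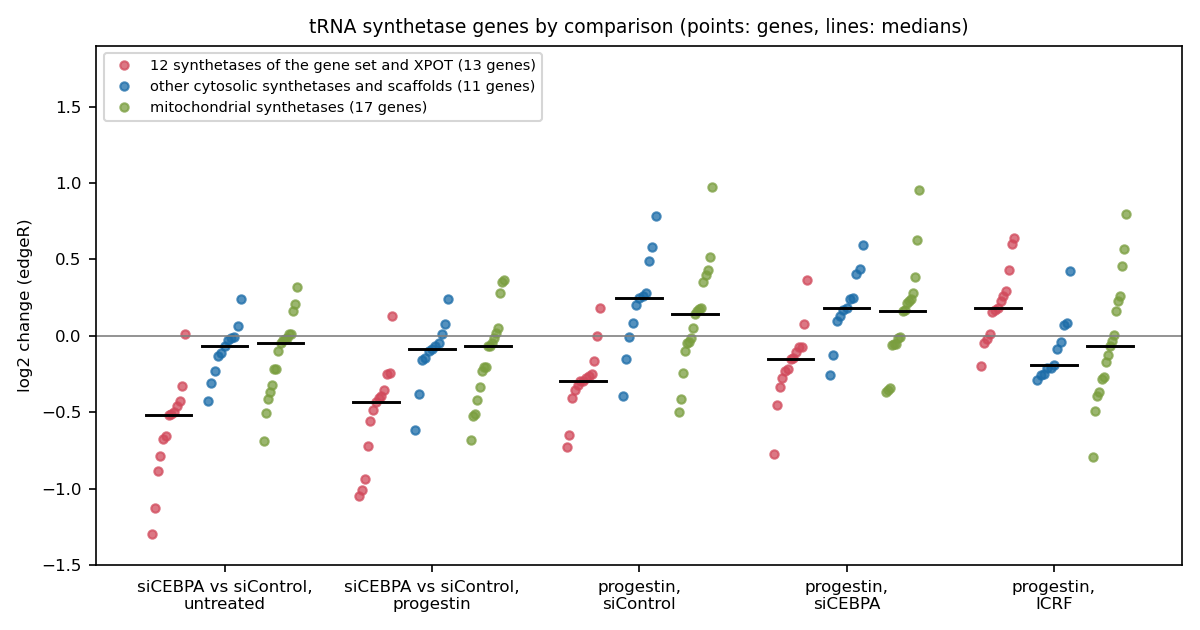
Log2 change (y axis) of single genes (points) in 5 comparisons (x axis) for the 12 member synthetases with XPOT, 11 other cytosolic synthetase and scaffold genes and 17 mitochondrial synthetases, with a line at each median. The member genes have medians of -0.52 with the CEBPA siRNA in untreated cells, -0.30 for progestin in siControl cells and 0.18 for progestin with ICRF, where the other cytosolic genes have -0.07, 0.25 and -0.19.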

How the data were processed

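Only the 12 RNA-seq libraries of the series were used, and its 18 other samples, all ChIP-seq, are not analysed here. What the authors deposited are counts of read pairs for each gene without normalization. Per the file headers they came from featureCounts 1.5.1, run on pairs with the reverse-strand setting and no option for multi-mapping reads, with GENCODE 24 gene models on hg38. The submitters' processing notes also name STAR and Trimmomatic, without versions. Total counts per library were 57364785 to 148624099, and group labels were read from the sample titles.

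The counts were tested with edgeR 4.0.16 (R 4.3.3). Genes were kept by filterByExpr and scaled by TMM, the model used glmQLFit with robust estimation and glmQLFTest, and calls needed a Benjamini-Hochberg p, adjusted over every gene tested, under 0.05. Separate fits were made for the siRNA set (8 libraries, 18351 genes, 4 residual degrees of freedom), the ICRF set (4, 18556 and 2) and both together (12, 19003 and 6), and the comparisons between ICRF and siControl used the last. SE is the log2 change over the square root of F. CPM used TMM factors over all 12 libraries. Alternatives were DESeq2 1.42.0 and its size factors, upper quartile or no scaling, other filters, a replicate block, one fit of all 12 and each library left out. Promoter letters came from RefSeq windows.

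The members and the further lists were chosen with earlier results of these data known. Every member could be named, with values per library for ATF4, DDIT3 and the 3 members of each class with the smallest p in a comparison, and from each further list the 2 genes with the smallest p. A few more values per library are given for members with large changes, chosen after their values were seen. In the 8 siRNA libraries the correlation of same-numbered replicates' deviations ran from 0.0125 to 0.240, which does not settle whether the numbers mark pairs. The labels do not say so either, and the main fits used no block, with a replicate block run as an alternative. Counts were also simulated with the spread of the fits, 200 genes changed in both directions and all others flat. Over the comparisons 74.6% to 92.5% of genes changed 1.5-fold and 92.5% to 100% of those changed 2-fold were recovered. Of unchanged genes 0.05% to 0.117% were called. Far larger shares of genes were called in the data, so these figures do not measure the error there.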

Additional observations from a re-analysis of the deposited data

Results flagged for a closer look

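The progestin response differed between siCEBPA and siControl cells, by a test of the difference itself in the edgeR fit, in 10 of the 42 genes tested, where 7.24% of all genes were called. CHAC1 and ATF3 kept the call under every alternative run, each of the other 8 lost it under at least 1, and 2 were left without siControl progestin replicate 1. The differences in log2 change, siCEBPA minus siControl, were 1.33 for CHAC1, 0.73 for ATF3, 0.42 for DDIT4, 0.38 for SESN2 and 0.28 for ATF4 among the stress factors. They were 0.64 for SLC7A5, 0.36 for SLC3A2 and 0.32 for SLC7A1 among the transporters, and 0.28 for AARS1 and 0.25 for GARS1 among the synthetases.

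Between ICRF and siControl cells the response differed by the same kind of test in 32 of 43 genes, where 48.9% of all genes were called. The differences, ICRF minus siControl, among the stress factors were 2.66 for ULBP1, 1.78 for CHAC1, 1.69 for GDF15, 0.70 for PPP1R15A, 0.49 for ATF4 and 0.47 for ATF5, with -0.65 for DDIT4, -0.58 for TRIB3 and -0.51 for TRIB1. Among the enzymes they were 2.01 for ASNS, 1.85 for CTH, 1.71 for PSAT1, 1.28 for ALDH1L2, 0.95 for PSPH, 0.73 for MTHFD2, 0.71 for CBS, 0.57 for PHGDH and 0.17 for SHMT2. The transporters gave 2.70 for SLC7A11, 0.68 for SLC7A1 and 0.32 for SLC38A2. The tRNA charging genes gave 1.26 for TARS1, 1.05 for CARS1, 0.76 for GARS1, 0.69 for AARS1, 0.65 for MARS1, 0.53 for SARS1, 0.47 for YARS1, 0.46 for EPRS1, 0.27 for NARS1, 0.27 for XPOT and 0.15 for IARS1. The ICRF and siControl libraries also differ in siRNA and in their arrest and time labels, and these cannot be told apart from ICRF.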

How the results depend on the processing

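Of 258 calls of single members over the 8 comparisons, 227 held their direction and their side of the threshold under every alternative run, and 31 lost the call under at least 1, with none turned. NARS1 under progestin in siCEBPA cells, not called at 0.08, was at -0.0879 without scaling factors. Counts of members that moved by more than 1.5 times were few. Without scaling factors the members higher were 6 for progestin in siCEBPA cells and 1 for the CEBPA siRNA in untreated cells. For the siRNA with progestin, leaving out a library gave 1 to 2 members higher. For the difference of responses, siCEBPA minus siControl, the members higher were 16 with no filter and 2 to 15 with a library left out, and 1 was lower with the stricter filter, with upper quartile scaling and without scaling factors. For ICRF minus siControl, leaving out a library gave 3 to 6 members lower. With the replicate number as a block, 14 members were higher and 1 lower in the siCEBPA difference, and over all genes that difference gave 1324 higher and 947 lower against 768 and 561. The correlations of same-numbered replicates' deviations were 0.207 to 0.240 among siControl untreated, siCEBPA untreated and siCEBPA progestin libraries. Those of siControl progestin with these groups were 0.0125 to 0.0297. Whether the numbers mark pairs is not known from the labels, and the cause was not tested. In the other comparisons the block moved no count of members by 1.5 times. With 2 libraries in each group, a left-out library leaves a lone sample that is assumed to vary like the other groups. CBS, at 1.70 to 3.50 CPM in untreated siRNA libraries, was among the members whose calls were lost in several comparisons.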
